A study of Rattus norvegicus with 30 samples.

Results

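Promoters strongly captured by methyl-CpG binding in all 3 tissues were described. A promoter was a window of 5200 bp, from 5000 bp upstream to 200 bp downstream of a transcription start site, listed under an Ensembl gene identifier. Of 19758 promoters that could be matched between tissues by identifier, each with a single set of counts per tissue, 915 (4.63%) were kept. They were chosen by their level in these libraries, as promoters whose median over the 10 libraries of a tissue was at least 80 CPM in each of the 3 tissues, where CPM is the count scaled to a library sum of 1000000. Levels and differences of level between tissues are therefore given below as a description without a test.

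The data were MBD-seq libraries from 10 adult male Sprague-Dawley rats, 5 sham-operated (rats 1 to 5) and 5 with traumatic brain injury (TBI, rats 6 to 10). TBI was lateral fluid percussion over the left parietal lobe, and sham rats had the anaesthesia and surgery without the impact. At 3 months the cortex around the lesion and the hippocampus and thalamus of the same side were taken from each rat, which made 30 libraries of 1 rat and 1 tissue each. The tissue taken as hippocampus was dentate gyrus with part of the CA3 field. No allele, drug or further treatment was given in the labels.

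In mammals, DNA methylation occurs mainly at cytosines followed by guanine (CpG sites). Promoters rich in CpG sites are mostly unmethylated, and exceptions include promoters of germline genes, imprinted genes on one parental allele, and sequences of repeats. In MBD-seq, a methyl-CpG binding domain captures fragments with methylated CpG sites, so that the level of a window combines its methylation, its number of CpG sites and the copies of its sequence in the genome. In pieces of tissue, more cells of a type that carries the mark and more methylation per cell cannot be told apart. All windows were defined with the same length, so levels were not divided by length. Methylation, number of CpG sites and copies cannot be told apart when levels of different promoters are compared. No table used here gave gene symbols for these identifiers, and the promoters are named by identifier only. For the same reason the tissues could not be checked against marker genes.

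A library held 1430875 to 4227800 promoter counts, and the mean count of a kept promoter was at least 153.6 (cortex), 149.9 (hippocampus) and 258.4 (thalamus). Some libraries stood apart. Over the 915 promoters, 26 of 30 libraries correlated best with the other libraries of their own tissue. Rats 4 (sham) and 6 (TBI) had cortex libraries that resembled the hippocampus most (r = 0.969 and 0.945, against 0.852 and 0.844 with the cortex). The hippocampus library of sham rat 5 was most like the cortex (0.954 against 0.781), and the thalamus library of TBI rat 6 was slightly more like the hippocampus (0.881 against 0.875 with the thalamus). In cortex rats 1 (sham) and 10 (TBI) a set of 13 promoters took much of the counts, as described below. Hippocampus TBI rat 9 was left out together with these libraries, a choice made with earlier results of these data known, although over the 915 it was like its own tissue (r = 0.974). Without them 932 promoters met the limit, of which 892 were among the 915.

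The limit of 80 CPM was reached by 1266 cortex, 1866 hippocampus and 1321 thalamus promoters. The 915 were 72.3%, 49.0% and 69.3% of these, respectively. A further 454 promoters reached it in exactly 2 tissues and 800 in exactly 1. The median level of the 915 was 104 CPM in the cortex, 139 CPM in the hippocampus and 105 CPM in the thalamus, against 30.2, 20.9 and 30.6 CPM over all matched promoters. In single libraries the limit was met less evenly, with 84 of the 915 at 80 CPM or more in all 30 libraries and 425 in the 28 libraries other than cortex rats 1 and 10. The median promoter met it in 27 libraries and the lowest in 16.

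**Figure D1:**
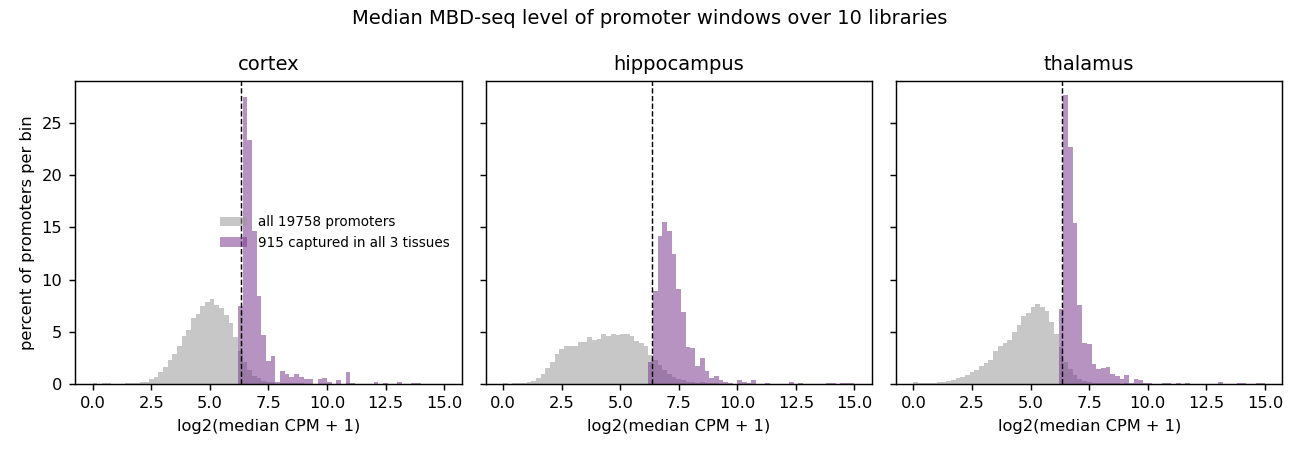
Histograms of the median level of each promoter over 10 libraries, as log2(CPM + 1), for all 19758 matched promoters (grey) and the 915 captured in all 3 tissues (purple), with the limit of 80 CPM as a dashed line. Most of the 915 lay close to the limit, and a thin tail reached 16057 CPM in the cortex, 30295 CPM in the hippocampus and 32379 CPM in the thalamus.

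Most of the 915 were near the limit. By their lowest tissue median, 492 promoters were at 80 to 100 CPM, 357 at 100 to 200 CPM, 49 at 200 to 500 CPM, 7 at 500 to 1000 CPM and 10 at 1000 CPM or more. The promoters just inside were ENSRNOG00000026211, ENSRNOG00000029235 and ENSRNOG00000031707, each with a lowest median of 80.1 CPM. Just outside were ENSRNOG00000019473, ENSRNOG00000021380 and ENSRNOG00000050861, with 79.96, 79.95 and 79.93 CPM. The limit thus cut through a continuous distribution, and no gap in level set the 915 apart.

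A few promoters held a large part of the counts. The 915 took 19.9% to 51.4% of the promoter counts of a cortex library (median 22.3%), 21.5% to 40.7% in the hippocampus (median 31.9%) and 20.9% to 42.2% in the thalamus (median 24.6%). The 9 highest promoters alone took 2.95% to 23.0%, 7.16% to 25.9% and 7.63% to 30.3%, respectively. Without the libraries named above, the share of the 915 was 21.3% to 22.5% in 3 sham and 19.9% to 20.8% in 3 TBI cortex libraries. It was 29.4% to 40.7% in 4 sham and 29.97% to 38.6% in 4 TBI hippocampus libraries, and 22.4% to 31.6% in 5 sham and 20.9% to 26.4% in 4 TBI thalamus libraries. The groups overlapped in the hippocampus and thalamus and not in the cortex, where 3 against 3 libraries are too few for an exact test to pass 0.05.

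**Figure D2:**
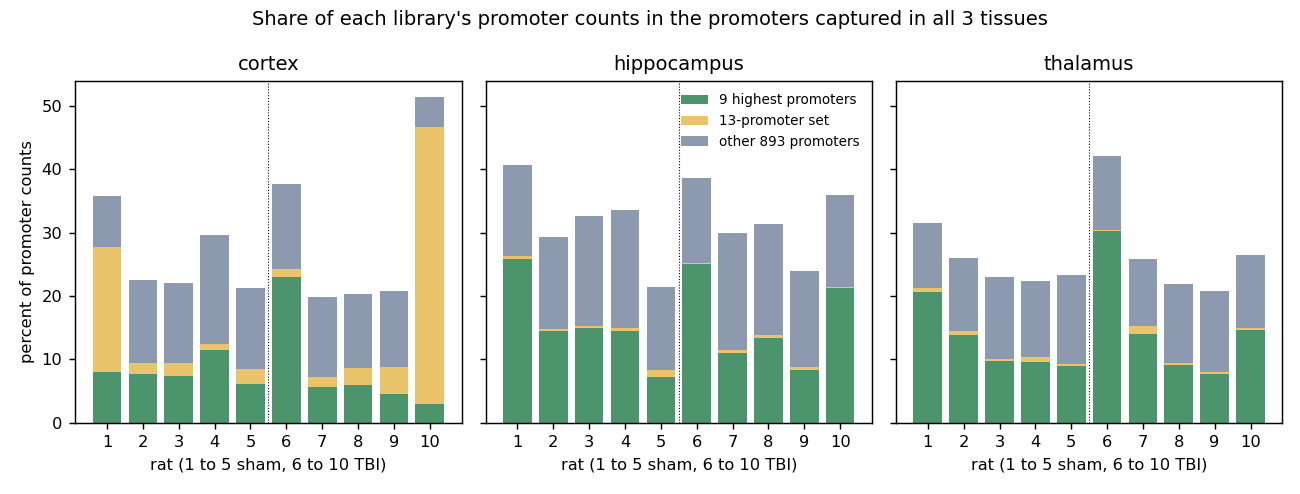
Percent of each library's promoter counts in the 9 highest promoters (green), in a set of 13 promoters that moved together (yellow) and in the other 893 of the 915 (grey), by rat, in each tissue. The yellow part was 43.7% in cortex TBI rat 10, and the green part was largest in the rat 6 library of the cortex and thalamus and in rat 1 of the hippocampus.

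Of the 915 promoters, 88 fell into 36 sets in which every pair had a Pearson r of at least 0.99 across the 30 libraries (a description, in which promoters of a set may share reads). Among them were 6 pairs of promoters with the same counts in every library, so that the 915 identifiers stood for 909 distinct measurements. The 5 promoters with the highest levels all belonged to a pair of such sets of 3.

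The first set of 3 held ENSRNOG00000048268, ENSRNOG00000048890 and ENSRNOG00000046059. Their median level was 16057 CPM in the cortex, 30295 CPM in the hippocampus and 32379 CPM in the thalamus for ENSRNOG00000048268, the highest of all. The level of ENSRNOG00000048268 divided by that of ENSRNOG00000048890 stayed between 1.11 and 1.44 in the 30 libraries. Between libraries, however, its level moved widely. In the cortex, ENSRNOG00000048268 had 24940, 19596, 17293, 23345 and 14820 CPM in sham rats 1 to 5, and 70430, 13972, 14578, 11451 and 7928 CPM in TBI rats 6 to 10. Its hippocampus levels were 82093, 41465, 31743, 28847 and 17590 CPM in sham and 80979, 23346, 27750, 18134 and 61056 CPM in TBI. Its thalamus levels were 65429, 39816, 22485, 24941 and 20749 CPM in sham and 91158, 41881, 21726, 18752 and 42591 CPM in TBI. The hippocampus and thalamus were highest in rats 1, 6 and 10, and rats 6 and 1 were the highest in the cortex, where rat 10 was the lowest. Sham and TBI overlapped in each tissue.

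The second set of 3 held ENSRNOG00000046828, ENSRNOG00000048184 and ENSRNOG00000046600, with a lowest pairwise r of 0.999. In the cortex ENSRNOG00000046828 had 4680, 11387, 12085, 26587 and 9237 CPM in sham rats 1 to 5 and 27558, 7744, 8685, 5030 and 2516 CPM in TBI rats 6 to 10. The hippocampus had 29997, 18406, 34820, 36379 and 11110 CPM in sham and 25874, 23846, 30282, 16095 and 29026 CPM in TBI. The thalamus had 12159, 14990, 17694, 13943 and 14941 CPM in sham and 31066, 12327, 14503, 10682 and 15193 CPM in TBI. The cortex libraries of rats 4 and 6, the hippocampus library of rat 5 and the thalamus library of rat 6, which were closest to another tissue, lay apart from their own tissue here as well. Although both sets were high, they did not move as a single group, and the level of ENSRNOG00000048268 was 0.793 to 5.38 times that of ENSRNOG00000046828 (median 1.77, n = 30 libraries). The gene body counts listed under the identifiers of the second set were the same in every library and summed to 5211 for cortex, 11080 for hippocampus and 12470 for thalamus.

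The other 3 promoters of the highest 9 were outside these sets. ENSRNOG00000049659 had a median of 4110 CPM in the cortex, 4829 CPM in the hippocampus and 8887 CPM in the thalamus. ENSRNOG00000049934 was highest in the hippocampus, with a mean ± SD of 6784 ± 1810 CPM in the 5 sham rats and 6986 ± 1269 CPM in the 5 TBI rats, against 4490 ± 2195 and 3500 ± 1778 CPM in the cortex and 3545 ± 675 and 3409 ± 526 CPM in the thalamus. ENSRNOG00000046568 had 2023 ± 753 and 1423 ± 518 CPM in the cortex, 2676 ± 770 and 2480 ± 800 CPM in the hippocampus and 1983 ± 159 and 1672 ± 334 CPM in the thalamus.

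A set of 13 promoters, led by ENSRNOG00000031766, was high in the cortex. In the cortex ENSRNOG00000031766 had 18998, 1540, 2023, 873 and 2161 CPM in sham rats 1 to 5 and 1249, 1417, 2482, 4016 and 37669 CPM in TBI rats 6 to 10. Hippocampus levels were 350, 328, 213, 390 and 1052 CPM in sham and 148, 280, 389, 357 and 166 CPM in TBI. Thalamus levels were 587, 508, 322, 791 and 249 CPM in sham and 139, 1066, 416, 349 and 327 CPM in TBI. Cortex rats 1 and 10 were far above all other libraries, 1 in each group. The set took 0.987% to 43.7% of the counts of a cortex library (median 2.28%) but at most 1.13% in the hippocampus and 1.19% in the thalamus. These promoters also had the largest spread of the 915, with an SD of log2(CPM + 1) around the group means of 1.26 in ENSRNOG00000031766 and 1.25 in ENSRNOG00000033615 and ENSRNOG00000029707.

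The remaining promoters described by level differed between tissues or did not. ENSRNOG00000011940 was lower in the hippocampus. It had 1321, 1436, 1595, 714 and 1840 CPM in sham and 430, 1777, 1868, 2025 and 781 CPM in TBI cortex. The hippocampus libraries had 353, 850, 627, 466 and 2560 CPM in sham and 497, 528, 633, 527 and 651 CPM in TBI. The thalamus libraries had 1465, 1380, 1714, 1558 and 1623 CPM in sham and 504, 1619, 1632, 1553 and 1881 CPM in TBI. The 4 libraries closest to another tissue again had levels apart from their own tissue, with 714 and 430 CPM in cortex rats 4 and 6, 2560 CPM in hippocampus rat 5 and 504 CPM in thalamus rat 6.

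ENSRNOG00000046024, in a set with ENSRNOG00000033130 and ENSRNOG00000050499, had the largest difference between tissues of the 915. Its median was 1654 CPM in the hippocampus, 903 CPM in the cortex and 168 CPM in the thalamus, a 9.84-fold range. In the thalamus 9 of 10 libraries lay between 160 and 186 CPM, and TBI rat 6 had 103 CPM. The hippocampus libraries ranged from 1008 to 2512 CPM and the cortex libraries from 202 to 2123 CPM, so that the hippocampus and cortex overlapped and neither overlapped with the thalamus. In ENSRNOG00000007049, chosen after its values were seen, the thalamus was the highest tissue. It had a median of 450 CPM in the thalamus, 96.7 CPM in the hippocampus and 81.05 CPM in the cortex.

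ENSRNOG00000047058 had about the same level in the 3 tissues. Its group means were 1103 ± 215 CPM in sham and 1012 ± 255 CPM in TBI cortex, 1054 ± 257 and 1077 ± 147 CPM in the hippocampus, and 984 ± 166 and 1113 ± 110 CPM in the thalamus (SD, n = 5 rats). The lowest library, cortex TBI rat 10, had 599 CPM, and the highest, hippocampus sham rat 4, had 1344 CPM.

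**Figure D3:**
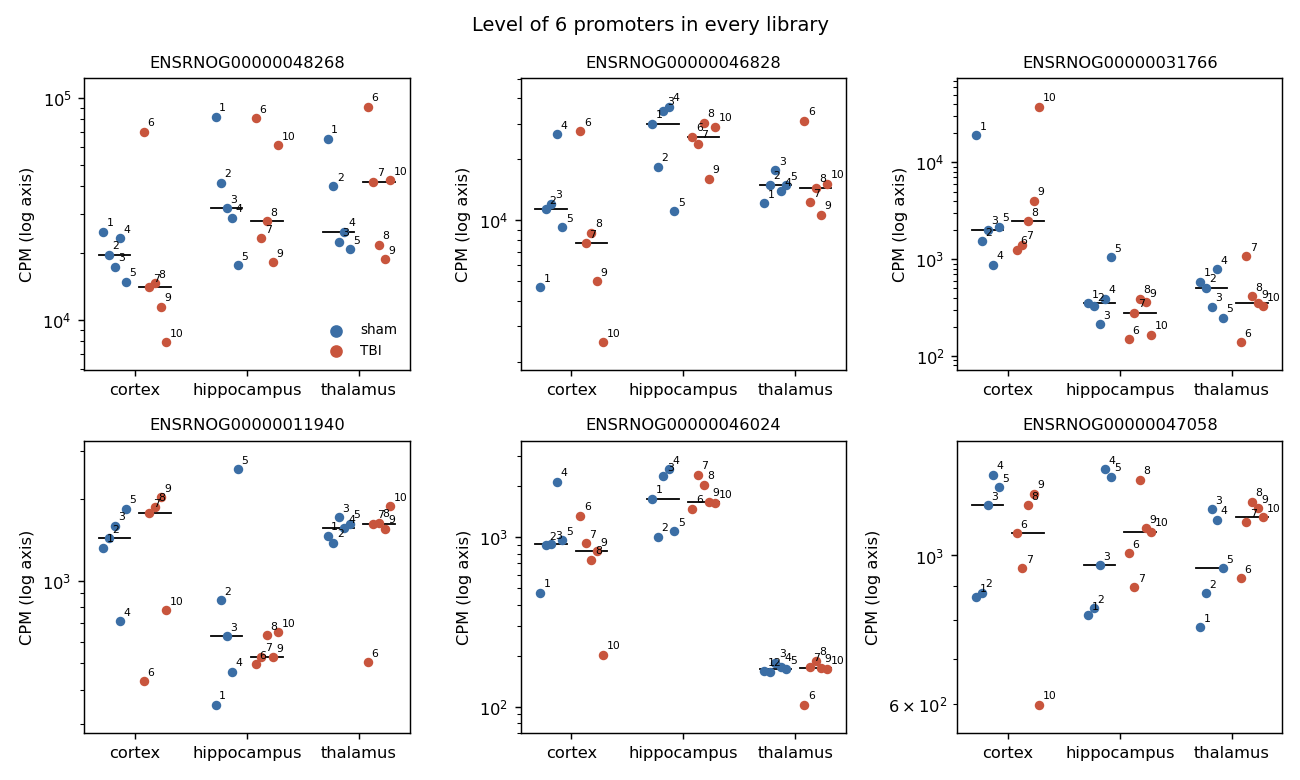
Level of 6 promoters in every library in CPM on a log axis, by tissue and group (sham blue, TBI red), with rat numbers beside the points and a line at the group median. ENSRNOG00000031766 was at 18998 and 37669 CPM in cortex rats 1 and 10, and ENSRNOG00000046024 was lower in all thalamus libraries than in any other library.

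Most of the 915 had similar levels in the 3 tissues. The highest tissue median was less than 1.5 times the lowest in 549 promoters (60%) and over 2 times in 119 (13.0%), with a median of 1.41 times. The hippocampus had the highest median in 705 promoters (77.05%), the thalamus in 117 and the cortex in 93. Over all matched promoters the hippocampus was the highest tissue in 21.1% and the lowest in 65.9%. The median log2 difference of hippocampus and cortex was 0.36 in the 915 and −0.45 in all matched promoters, and 0.40 and −0.64 without the libraries that stood apart. For thalamus and hippocampus it was −0.35 and 0.40, and for thalamus and cortex −0.003 and −0.05. The hippocampus thus had the wider distribution of levels, with fewer counts at most promoters and more at the highest. The ratio of the median level of the 915 to that of all promoters was 5.37 to 8.45 in 9 hippocampus libraries, and 1.60 to 3.6 in 8 cortex and 2.86 to 4.18 in 9 thalamus libraries. In the 4 libraries closest to another tissue it was 6.23 and 6.22 in the cortex (rats 4 and 6), 3.53 for hippocampus rat 5 and 5.78 for thalamus rat 6. The labels name the same instrument for all libraries while the methods describe another for the thalamus, so that tissue and instrument cannot be told apart for the thalamus.

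The spread between rats was given as the coefficient of variation (CV) of CPM within a group. The median CV of the 915 was 29.8% in sham and 39.9% in TBI cortex, against 25.2% and 35.1% over all matched promoters. Without cortex rats 1, 4, 6 and 10 it was 9.18% and 10.3%, against 14.02% and 13.96%, with 3 rats left per group. In the hippocampus it was 20.2% in sham and 16.03% in TBI, against 32.1% and 22.3%. Without rats 5 and 9 it was 15.3% and 17.1%, against 24.9% and 21.5%. In the thalamus it was 15.6% in sham, against 16.4%. In TBI it was 14.3%, against 25.5%, and without TBI rat 6 it was 13.1%, against 14.1%, so that most of the gap in the TBI thalamus rested on that library. Higher counts have a smaller counting error, and its part in the lower CV of the 915 was not tested. The lowest SDs of log2(CPM + 1) around the group means were those of ENSRNOG00000047532, ENSRNOG00000050916 and ENSRNOG00000047192, at 0.22 for each. ENSRNOG00000050916 had 251 to 439 CPM in the cortex, 263 to 353 CPM in the hippocampus and 317 to 535 CPM in the thalamus. The median SD was 0.43 in the 915 and 0.42 over all matched promoters.

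Gene bodies were listed in separate tables, whose values did not choose the promoters. They come from the same libraries, and a promoter window reaches 200 bp past the transcription start site, so the readouts are not independent. Gene body sums were not divided by length, and some identifiers had the same gene body counts. The gene body counts listed under an identifier, summed over the 10 libraries, had a median over the 915 of 11 for cortex, 7 for hippocampus and 29 for thalamus. For the other matched identifiers the medians were 2, 0 and 1. No gene body count in any library was present for 13.4%, 24.8% and 18.5% of the 915, against 27.98%, 51.0% and 47.1% of the others. More than 100 counts were present for 77 (8.42%), 104 (11.4%) and 142 (15.5%) of the 915, against 51 (0.271%), 182 (0.966%) and 242 (1.28%) of the others. Gene body counts were low, with 27209 to 161737 in sum per library.

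In a few promoters the same rats were high or low in all 3 tissues, which the rule did not use. For this the level was taken as log2 after TMM scaling, unlike the CPM values printed below. Deviations of this level from the group mean were compared between tissues over the 10 rats. With limits chosen after the values were seen, a promoter was counted when r was at least 0.7 in all 3 pairs of tissues. The rats also had to differ at least 1.5-fold. Both limits were met by 5 of the 915 (0.546%) and by 8 of 18843 other matched promoters (0.0425%). Of the latter, 5 of 8887 (0.0563%) met them when a median of at least 20 CPM in each tissue was required. No test was made, because the same 10 animals underlie all promoters. The 915 also had higher counts. Their median mean count was 216.5, 271.3 and 344.3 in the cortex, hippocampus and thalamus, against 65, 42.9 and 96.8 over all matched promoters. The part of counting error in the difference of shares was not tested.

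ENSRNOG00000049659 was the highest of these 5. It had 8054, 4422, 4405, 3832 and 4226 CPM in sham and 12558, 3872, 3995, 3187 and 3429 CPM in TBI cortex. The hippocampus had 12425, 8068, 5107, 4001 and 4551 CPM in sham and 14287, 3299, 4494, 3144 and 12251 CPM in TBI, and in the thalamus 18895, 11178, 5812, 6596 and 5298 CPM in sham and 20228, 12180, 5970, 5311 and 11522 CPM in TBI. Rats 6 and 1 were the highest in every tissue, and sham and TBI overlapped. ENSRNOG00000048654 had the same rats at the top, with 270, 282 and 235 CPM in the cortex, hippocampus and thalamus of rat 6 and 174, 205 and 192 CPM in those of rat 1, where the lowest libraries had 59.5, 49.6 and 47.4 CPM.

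ENSRNOG00000047226 had another order of rats. It had 163, 251, 128, 134 and 312 CPM in sham and 67.9, 287, 122, 281 and 68.1 CPM in TBI cortex. In the hippocampus it had 107, 210, 140, 132 and 322 CPM in sham and 70.1, 189, 77.3, 171 and 98.3 CPM in TBI, and in the thalamus 140, 193, 220, 198 and 201 CPM in sham and 55.3, 163, 108, 234 and 117 CPM in TBI. Rat 6 was the lowest in all 3 tissues, while rats 7 and 9 lay within or above the sham range. ENSRNOG00000046754 had the same lowest rat, with 67.9, 57.1 and 49.9 CPM in the cortex, hippocampus and thalamus of rat 6. In ENSRNOG00000050418 the thalamus libraries of rats 1, 6 and 9 had 370, 340 and 270 CPM and those of rats 2, 3 and 4 had 88.9, 105 and 88.6 CPM. Copy number, sequence and methylation of these promoters in the single rats cannot be told apart in these counts.

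**Figure D4:**
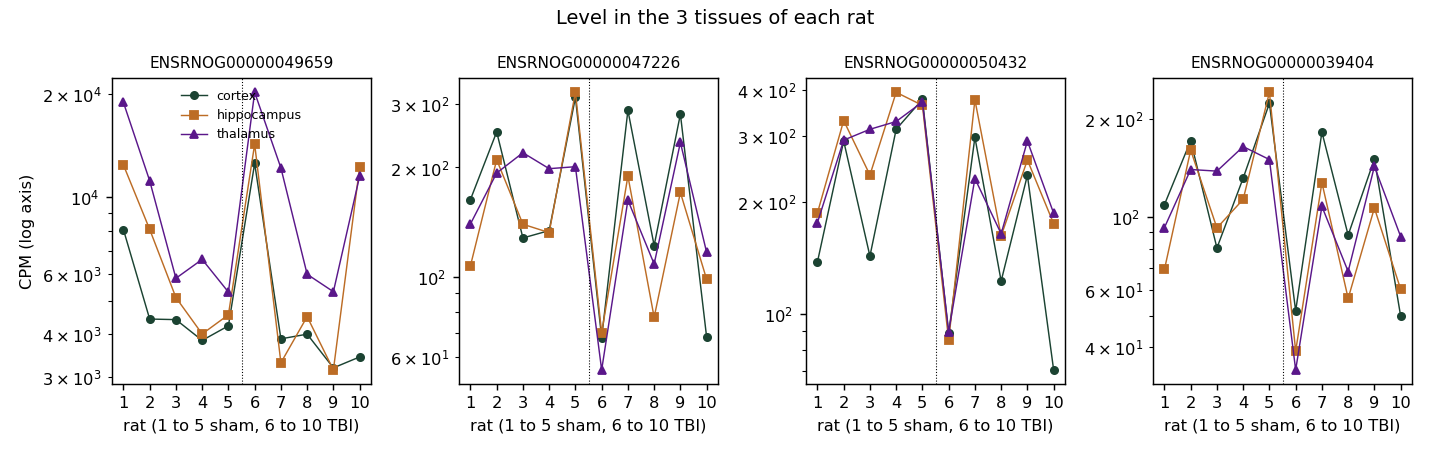
Level of 4 promoters in the cortex, hippocampus and thalamus of each rat, in CPM on a log axis, with sham rats left and TBI rats right of the dotted line. ENSRNOG00000049659 was highest in rats 1 and 6 in every tissue, and the other 3 promoters were low in rat 6 in every tissue.

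TBI was compared with sham in each tissue by the quasi-likelihood test of edgeR over all promoter windows with enough counts. All 915 promoters were tested in each tissue. None was called in any tissue at an adjusted p of 0.05, as was none of the 22110, 20017 and 21894 windows tested in the cortex, hippocampus and thalamus (0%). DESeq2 called 0 windows as well. The common-dispersion exact test called 7 cortex windows (0.0317%), 157 hippocampus windows (0.784%) and 0 thalamus windows, and 0 of these were among the 915. In the cortex, 0 of the 915 had an unadjusted p under 0.05, against 0.534% of all windows higher and 0.24% lower in TBI. In the hippocampus 0 were higher and 2 lower, against 1.27% and 1.6% of all windows, and in the thalamus 0 were higher and 9 lower, against 0.42% and 0.484%. Few windows passed even the unadjusted limit, so 0 calls do not show that TBI and sham were alike. Of the 915, 19, 10 and 3 differed more than 1.5-fold between the groups in the cortex, hippocampus and thalamus, against 333 (1.51%), 901 (4.5%) and 120 (0.548%) of all windows. In the cortex 13 of the 19 differed more than 2-fold, against 43 of the 22110 windows. They included ENSRNOG00000030644, ENSRNOG00000030371 and ENSRNOG00000029042 of the set of 13 that moved together, so these were not separate findings. Their log2 fold changes of 1.31, 1.41 and 1.26 became −1.27, −1.24 and −1.11 without TBI rat 10. Without the libraries that stood apart (hippocampus rat 9 included) the counts over 1.5-fold were 7, 4 and 1. In the cortex 1 of the 7 then differed more than 2-fold. Such counts over all windows were not made for this setting.

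The 5th and 95th percentiles of the log2 fold changes of the 915 were −0.35 and 0.08 in the cortex, −0.21 and 0.23 in the hippocampus and −0.09 and 0.23 in the thalamus. In the cortex 810 of 915 were lower in TBI (median log2 fold change −0.16, −0.01 over all windows). This turned to 661 of 915 higher without sham rat 4 (median 0.08) and to 501 higher without TBI rat 10 (median 0.01), and the median was −0.44 without TBI rat 6. Without rats 1, 4, 6 and 10 together 756 were lower (median −0.14). In the hippocampus 639 were higher (median 0.05), which turned to 237 without sham rat 5 and 371 without rats 5 and 9, and was 746 without rat 9 alone. In the thalamus 711 were higher (median 0.07), which turned to 78 without TBI rat 6 (median −0.13) and to 211 with library totals in place of TMM scaling. The direction of the 915 as a group was thus turned by leaving out either of 2 libraries in the cortex and 1 in the hippocampus, and by 1 library or the scaling in the thalamus.

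Without the libraries that stood apart, and hippocampus rat 9, more promoters passed the unadjusted limit and 0 were called. In the cortex, with sham rats 2, 3 and 5 and TBI rats 7, 8 and 9, 122 of the 915 (13.3%) had an unadjusted p under 0.05 and were lower in TBI, and 1 was higher. Over all windows 3.43% were lower and 2.92% higher. In the thalamus without TBI rat 6, 87 of the 915 (9.51%) were lower and 6 higher, against 2.68% and 3.08% of all windows. In the hippocampus without rats 5 and 9, 7 were lower and 4 higher, against 1.47% and 1.65%. The smallest adjusted p of the 915 was 0.19, 0.999 and 0.824 in the cortex, hippocampus and thalamus, respectively. The ratio of the median level of the 915 to that of all promoters moved in the same way, from 3.25 to 3.6 in the 3 sham to 2.90 to 3.23 in the 3 TBI cortex libraries. In the thalamus it was 3.26 to 4.18 in 5 sham and 2.86 to 3.34 in 4 TBI libraries. Its part in the lower counts was not tested, and the 915 rose and fell together between libraries, so that they were not independent of each other.

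**Figure D5:**
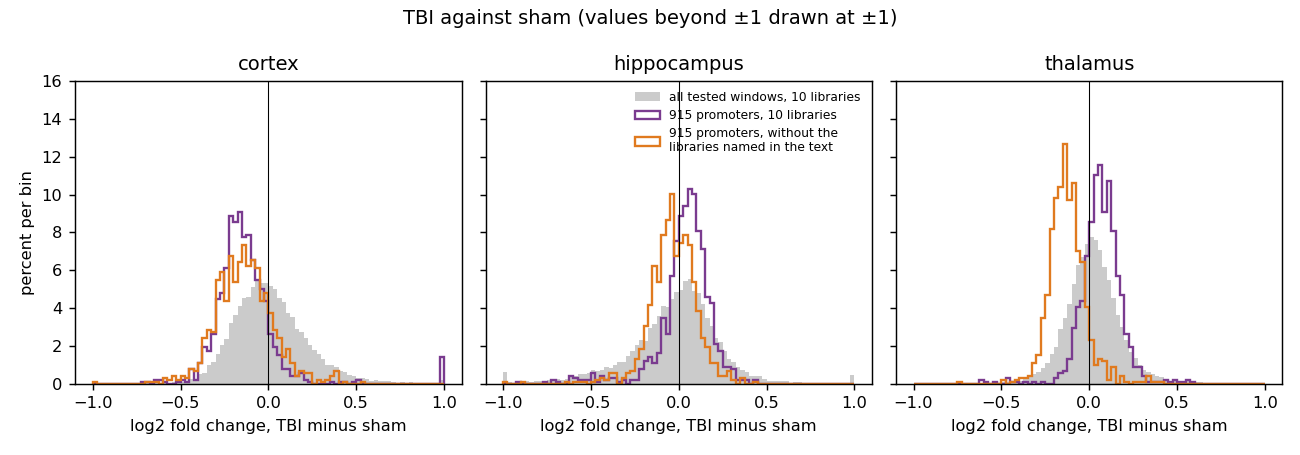
Histograms of the log2 fold change of TBI minus sham for all tested windows (grey), for the 915 promoters with 10 libraries (purple) and for the 915 without cortex rats 1, 4, 6 and 10, hippocampus rats 5 and 9 and thalamus rat 6 (orange), with values beyond 1 drawn at the edge. In the thalamus the median of the 915 moved from 0.07 to −0.13 when TBI rat 6 was left out.

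For the 12 promoters with the highest levels, the exact two-sided permutation test of log2(CPM + 1) over all 252 assignments of 5 and 5 rats gave no p under 0.05 in 36 tests (smallest p = 0.0952, ENSRNOG00000046568 in the thalamus, unadjusted). The smallest p possible was 0.00794. ENSRNOG00000048268 had a log2 fold change of 0.52 (SE 1.27) in the cortex, 0.06 (SE 1.22) in the hippocampus and 0.57 (SE 0.90) in the thalamus. The cortex value was −0.81 without TBI rat 6 and −0.42 without rats 1, 4, 6 and 10, and the thalamus value was −0.24 without TBI rat 6, so that the direction rested on single libraries. With such errors a 2-fold change was not detectable in this promoter. ENSRNOG00000047058, the steadiest of the 12, had −0.05 (SE 0.46), 0.09 (SE 0.32) and 0.28 (SE 0.23).

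The promoters with the smallest p lower in TBI in the thalamus were ENSRNOG00000039404, ENSRNOG00000050432 and ENSRNOG00000049182. The last had a log2 fold change of −0.44 (SE 0.17, edgeR adjusted p = 0.9998) in the thalamus, −0.34 (SE 0.26) in the hippocampus and −0.31 (SE 0.31) in the cortex. ENSRNOG00000039404 had 93.1, 140, 139, 165 and 150 CPM in sham and 34.1, 108, 68.2, 143 and 87.4 CPM in TBI thalamus. Hippocampus levels were 69.3, 161, 92.8, 114 and 242 CPM in sham and 38.9, 128, 56.4, 107 and 60.2 CPM in TBI. Cortex levels were 109, 172, 80.6, 132 and 224 CPM in sham and 51.7, 183, 88.3, 151 and 49.8 CPM in TBI. TBI rats 6, 8 and 10 were below the sham range in the hippocampus and thalamus, and rats 7 and 9 lay within it in all 3 tissues. Its log2 fold change was −0.61 (SE 0.21) in the thalamus, −0.71 (SE 0.27) in the hippocampus and −0.46 (SE 0.35) in the cortex. The adjusted p was 0.9998 in the first 2 and 1.00 in the cortex in the quasi-likelihood test of edgeR.

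ENSRNOG00000050432 had 176, 293, 313, 328 and 370 CPM in sham and 89.4, 231, 164, 291 and 186 CPM in TBI thalamus. In the hippocampus it had 186, 330, 236, 393 and 363 CPM in sham and 84.8, 375, 162, 259 and 175 CPM in TBI, and in the cortex 138, 291, 143, 313 and 376 CPM in sham and 88.6, 298, 122, 235 and 70.6 CPM in TBI. Rats 6 and 8 were below the sham range in all 3 tissues, and rats 7 and 9 were within it. Rat 10 was below it in the hippocampus and cortex and within it in the thalamus. The log2 fold change of ENSRNOG00000050432 was −0.58 (SE 0.22, edgeR adjusted p = 0.9998) in the thalamus, −0.48 (SE 0.30) in the hippocampus and −0.65 (SE 0.40) in the cortex. As the 3 tissues came from the same 10 rats, the 3 values are not independent. In both promoters rats of the same group differed several-fold, and the values of ENSRNOG00000050432 in rat 6 were close to each other in the 3 tissues although the cortex and thalamus libraries of rat 6 stood apart in other promoters.

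In the hippocampus, ENSRNOG00000039404 had the smallest p lower in TBI as well. The next was ENSRNOG00000029042, of the set of 13, with −0.77 (SE 0.36, edgeR adjusted p = 0.9998), which was −0.38 without rats 5 and 9 and −0.32 without rat 5 alone. ENSRNOG00000050647 followed with −0.44 (SE 0.21), which was −0.19 without rat 5. The smallest p higher in TBI were those of ENSRNOG00000001048 (log2 fold change 0.43, SE 0.21), ENSRNOG00000000502 (0.43, SE 0.22) and ENSRNOG00000045797 (0.29, SE 0.15), with an edgeR adjusted p of 0.9998 for each. In the thalamus the smallest p higher in TBI were those of ENSRNOG00000019346 (0.35, SE 0.19), ENSRNOG00000050916 (0.29, SE 0.19) and ENSRNOG00000042971 (0.30, SE 0.20), with an edgeR adjusted p of 0.9998 for each.

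In the cortex, ENSRNOG00000030644, ENSRNOG00000030371 and ENSRNOG00000029042, all of the set of 13, had the smallest p higher in TBI, with log2 fold changes of 1.31 (SE 1.214), 1.41 (SE 1.31) and 1.26 (SE 1.18). Without TBI rat 10 they were −1.27, −1.24 and −1.11. The smallest p lower in TBI were those of ENSRNOG00000050432, given above, ENSRNOG00000028526 (−0.58, SE 0.37, edgeR adjusted p = 1.00) and ENSRNOG00000050394 (−0.69, SE 0.47), which was −0.18 without sham rat 4. ENSRNOG00000028526 had 141, 449, 148, 160 and 325 CPM in sham and 159, 145, 169, 155 and 114 CPM in TBI cortex, and sham rats 2 and 5 alone were above the others. Without the libraries that stood apart it had the smallest p of the 915 (log2 fold change −1.02, SE 0.21, edgeR adjusted p = 0.19), with sham rat 3 still within the TBI range.

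Whether the difference between TBI and sham depended on the tissue was asked with an interaction term for tissue and TBI over the matched promoters. None of the 915, and none of the 19641, 19677 and 19555 promoters tested (0%), was called for hippocampus against cortex, thalamus against cortex or thalamus against hippocampus. At an unadjusted p under 0.05, 0 of the 915 passed in each, against 1.57%, 0.798% and 1.88% of all promoters tested. With the rat as a replicate block, 0 of the 915 passed either limit. The smallest p among the 915 was that of ENSRNOG00000040166 for hippocampus against cortex, with a difference of log2 fold changes of 0.55 (SE 0.32, adjusted p = 0.9999 in edgeR). It had −0.37 in the cortex and 0.17 in the hippocampus. ENSRNOG00000050618 followed with 0.52 (SE 0.33). For thalamus against cortex the smallest p was that of ENSRNOG00000028526 (0.58, SE 0.40, edgeR adjusted p = 0.9997), before ENSRNOG00000029235 (0.38, SE 0.28). For thalamus against hippocampus it was that of ENSRNOG00000045797 (−0.35, SE 0.21, edgeR adjusted p = 0.9999), before ENSRNOG00000019346 (0.46, SE 0.28), which was 0.16 without rat 6.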

How the data were processed

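MBD-seq counts of promoters and gene bodies were used for 30 libraries (3 tissues of 5 sham and 5 TBI rats). The authors enriched methylated DNA, mapped reads with STAR to Rnor_5.0 and counted them per window with Repitools in R 3.1.0, and the deposited values are whole-number counts without normalization. The labels give R 3.1.0, STAR and Rnor_5.0, and groups and rat numbers came from the labels. Exon tables were not used.

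Levels were counts divided by the library's sum of promoter counts, scaled to 1000000 (CPM). Each promoter table held 22307 rows with 20196 identifiers. TBI was compared with sham by edgeR 4.0.16 in R 4.3.3 (filterByExpr with a minimum count of 10 and a minimum total of 15, TMM, quasi-likelihood F test, Benjamini-Hochberg adjustment over all windows, threshold 0.05). Tests were checked on simulated counts without libraries that stood apart, so the check does not cover data with such libraries. The 5 rats of a group are separate animals, and replicate libraries differed by more than sampling noise (lowest chi-square per degree of freedom 2.06).

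Promoters named were the 12 with the highest levels, the 3 with the smallest p in each direction and tissue, the extremes of spread, those at the limit and the 2 with the smallest interaction p of each pair of tissues. The promoters and rules were chosen with earlier results of these data known. Gene lists prepared by symbol could not be applied, since 0 identifiers had a symbol in the reference table, and no sequence was used here.

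Equal rat numbers mark the same animal, so that tissues are paired in the interaction and TBI against sham is not. Deviations of the same rat had a median r of 0.028, 0.12 and −0.06 between tissues, with 2, 5 and 2 of 10 rats over 0.1. Alternatives were DESeq2 1.42.0, library totals, other filters, an exact test with a common dispersion, promoters with the same counts kept once, the rat as a block, leaving out each rat, and leaving out libraries that stood apart (for the interactions chosen after seeing the data). Python 3.11.15, pandas 2.3.3 and matplotlib 3.10.9 were used.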

Additional observations from a re-analysis of the deposited data

Results flagged for a closer look

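Among 54 groups of 5 libraries (the share of counts and the median level of the 915 promoters, and the levels of 7 of them, in 6 groups), 11 had a library far from the other 4 by Dixon's criterion, against about 2.7 by chance (1 in 20). All 11 were in libraries that had already stood apart, and the 7 promoters were chosen after their values were seen. The groups also reuse the same 30 libraries and are not independent, so 2.7 is not a valid expectation here.

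In the cortex, sham rat 1 had 18998 CPM at ENSRNOG00000031766 (other sham rats 873 to 2161 CPM), and TBI rat 10 had 37669 CPM (other TBI rats 1249 to 4016 CPM). The median level of the 915 promoters was 32.8 CPM in TBI rat 10 and 98.6 to 121 CPM in the remaining TBI libraries. TBI rat 6 had 70430 CPM at ENSRNOG00000048268 (others 7928 to 14578 CPM) and 27558 CPM at ENSRNOG00000046828 (others 2516 to 8685 CPM).

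In the hippocampus, sham rat 5 had 2560 CPM at ENSRNOG00000011940 (others 353 to 850 CPM) and 1052 CPM at ENSRNOG00000031766 (others 213 to 390 CPM).

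In the thalamus, the 915 promoters took 42.2% of the counts of TBI rat 6, against 20.9% to 26.4% in the other TBI rats. This library also had 31066 CPM at ENSRNOG00000046828 (others 10682 to 15193 CPM), 504 CPM at ENSRNOG00000011940 (others 1553 to 1881 CPM) and 103 CPM at ENSRNOG00000046024 (others 167 to 186 CPM).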

How the results depend on the processing

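The number of promoters at the limit in all 3 tissues was 915 at 80 CPM, 2198 at 60 CPM and 423 at 100 CPM. It was 691 with TMM-scaled library sizes, 967 with the sham libraries alone, 932 without the libraries that stood apart and 909 with promoters of the same counts counted once. Of the 915, 685 were shared with TMM scaling and 869 with the sham libraries. With library totals, the common-dispersion exact test called 7 windows in the cortex and 157 in the hippocampus, where the quasi-likelihood test called 0, and 0 of these were among the 915. The cause was not tested. Every other alternative, including leaving out each rat in turn, called 0 windows in the 3 tissues and 0 promoters in the 3 interactions. The interactions with the rat as a replicate block also had 0 calls, and the number at an unadjusted p under 0.05 moved from 157 to 281 for thalamus against cortex and from 368 to 159 for thalamus against hippocampus. The median share of counts in the 915 moved by less than the spread between rats. Of the fold changes and interactions printed for single promoters, 34 were recomputed under the alternatives of their tissue or pair, and 26 of these kept their direction. The hippocampus and cortex fold changes of ENSRNOG00000049182 were not recomputed. Those of ENSRNOG00000030644, ENSRNOG00000030371 and ENSRNOG00000029042 in the cortex ranged from −1.27 to 2.98, −1.24 to 3.08 and −1.11 to 2.89 when each rat was left out in turn (lowest without TBI rat 10, highest without sham rat 1). That of ENSRNOG00000048268 ranged from −0.81 to 0.73 (cortex), −0.39 to 0.67 (hippocampus) and −0.24 to 1.02 (thalamus), each lowest without TBI rat 6, and the cortex value was −0.42 without the libraries that stood apart. That of ENSRNOG00000047058 ranged from −0.21 to 0.10 in the cortex and from −0.0086 to 0.22 in the hippocampus. Counts cover counting error only, and with 5 rats per group the errors given beside the fold changes limit what could be detected in a single promoter.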
